A study of Mus musculus with 6 samples.

Results

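The mir-181 family of mouse microRNAs is made from 6 loci, Mir181a-1, Mir181b-1, Mir181a-2, Mir181b-2, Mir181c and Mir181d, which lie in pairs in 3 genomic clusters. The 6 loci were found by gene symbol in the annotation of the array platform, and each is read by 1 probe set of the 28192 that were tested. The family was chosen on its difference between the 2 groups of arrays, so the levels and differences of its loci are given as a description, with no test.

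MicroRNAs are short RNAs cut from hairpins in longer primary transcripts. They pair with messenger RNAs mainly through the seed, bases 2 to 8 from their 5′ end, and lower the stability or translation of those messengers. In the thymus, miR-181a is known for its high level in immature thymocytes and for setting the strength of T-cell receptor signals by holding down several phosphatases. The a-1/b-1 cluster is known as the main source of miR-181a in these cells.

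The study measured total RNA of mouse double-negative (DN) thymocytes, T-cell precursors without CD4 or CD8, on 6 Affymetrix arrays in 2 groups of 3. The arrays labelled RAG-/- hold DN thymocytes of mice without Rag2, the recombinase subunit needed to assemble antigen receptors, and the labels call them control. The arrays labelled DNTLX3+ hold sorted wild-type DN thymocytes that received TLX3, a homeobox oncogene of T-cell leukaemia, from an MSCV retrovirus that also carries GFP, and the labels call them tumoral. The protocols give C57Bl/6 mice of 4 to 6 weeks and, for transduced cells, 4 to 5 weeks of co-culture with irradiated OP9-DL1 stroma, which presents a Notch ligand, in medium with IL-7 and Flt3L. It is not clear from the labels whether the RAG-/- cells were cultured. Arrays of cells given the GFP virus alone were not analysed here, so genotype, virus and culture cannot be told apart as sources of a difference. The labels do not say whether replicates are separate mice or cultures, so the spread between arrays may be technical.

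The loci share 1 seed. RefSeq sequences of build GRCm38.p6 give 4 distinct 5p products from the 6 loci, and they are shown because the array has a probe set for each locus, while pairs of loci give the same mature RNA. Capitals mark the seed.
miR-181a-5p: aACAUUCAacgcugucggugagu
miR-181b-5p: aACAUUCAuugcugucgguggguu
miR-181c-5p: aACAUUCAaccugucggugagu
miR-181d-5p: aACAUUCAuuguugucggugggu
Of 1679 mature microRNA names in the RefSeq table, these 4 carry this seed and 0 others do. Outside the seed, miR-181b-5p differs from miR-181a-5p by A9U, C10U and A21G, with positions counted from 1 at the 5′ end of miR-181a-5p, and is 1 base longer. From miR-181b-5p to miR-181d-5p the change within the shared length is C12U, counted from the 5′ end of miR-181b-5p. The miR-181c-5p sequence is 1 edit away from miR-181a-5p, a gap of 1 base.

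Mir181a-1 and Mir181a-2 give the same miR-181a-5p from different hairpins, and Mir181b-1 and Mir181b-2 give the same miR-181b-5p. The hairpins of both clusters are printed below with the mature 5p and 3p arms in capitals, since the clusters differed in the data.
Mir181a-1: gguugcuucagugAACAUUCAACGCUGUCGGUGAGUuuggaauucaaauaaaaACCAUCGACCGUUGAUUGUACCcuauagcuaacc
Mir181b-1: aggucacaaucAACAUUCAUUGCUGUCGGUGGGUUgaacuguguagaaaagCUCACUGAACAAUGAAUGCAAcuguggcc
Mir181a-2: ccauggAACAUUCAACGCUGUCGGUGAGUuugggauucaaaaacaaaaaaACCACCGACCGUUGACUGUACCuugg
Mir181b-2: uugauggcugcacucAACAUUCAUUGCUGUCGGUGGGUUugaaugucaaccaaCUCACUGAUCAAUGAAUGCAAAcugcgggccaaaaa
In that table Mir181a-1 lies at chr1:137966455-137966541 and Mir181b-1 at chr1:137966639-137966718, both on the plus strand and 97 bases apart. Mir181a-2 lies at chr2:38852735-38852810 and Mir181b-2 at chr2:38853830-38853918, also on the plus strand and 1019 bases apart, inside the span of Nr6a1. Mir181c and Mir181d lie on chromosome 8. The longest run of identical bases is 28 between the hairpins of Mir181a-1 and Mir181a-2 and 26 between those of Mir181b-1 and Mir181b-2. No source used here gives the part of each locus that its probes cover, so signal from the primary transcript, the hairpin and the mature RNA was not separated, and binding of 1 locus' RNA to the other's probes was not tested.

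The clusters differed in how far apart the groups stood. Both loci of the a-1/b-1 cluster were lower in all 3 DNTLX3+ arrays, both loci of the a-2/b-2 cluster were lower by less, and the groups overlapped for both loci of the c/d cluster. All values are log2 expression values of the authors, and differences are DNTLX3+ minus RAG-/-.

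Mir181b-1 stood at 8.65, 8.79 and 9.08 in RAG-/- replicates 1, 2 and 3 and at 4.85, 5.51 and 5.46 in DNTLX3+ replicates 1, 2 and 3. The lowest RAG-/- array was 3.14 log2 units above the highest DNTLX3+ array. The group means were 8.84 ± 0.22 and 5.27 ± 0.37 (SD, n = 3 in each group), a log2 difference of -3.57 ± 0.20 (SE). The DNTLX3+ mean lay under the array medians of 6.22 to 6.35, where a value may be background, and the size of the difference may then be understated.

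Mir181a-1, the partner of Mir181b-1 in the same cluster, was at 6.69, 6.61 and 6.40 in the RAG-/- arrays. In the DNTLX3+ arrays it was at 4.15, 3.99 and 5.04. The groups did not overlap, and replicate 3 was the highest of the DNTLX3+ arrays. The means were 6.57 ± 0.15 and 4.40 ± 0.57 (SD, n = 3), a log2 difference of -2.17 ± 0.25 (SE). The RAG-/- mean lay just above the array medians and the DNTLX3+ mean under them.

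**Figure D1:**
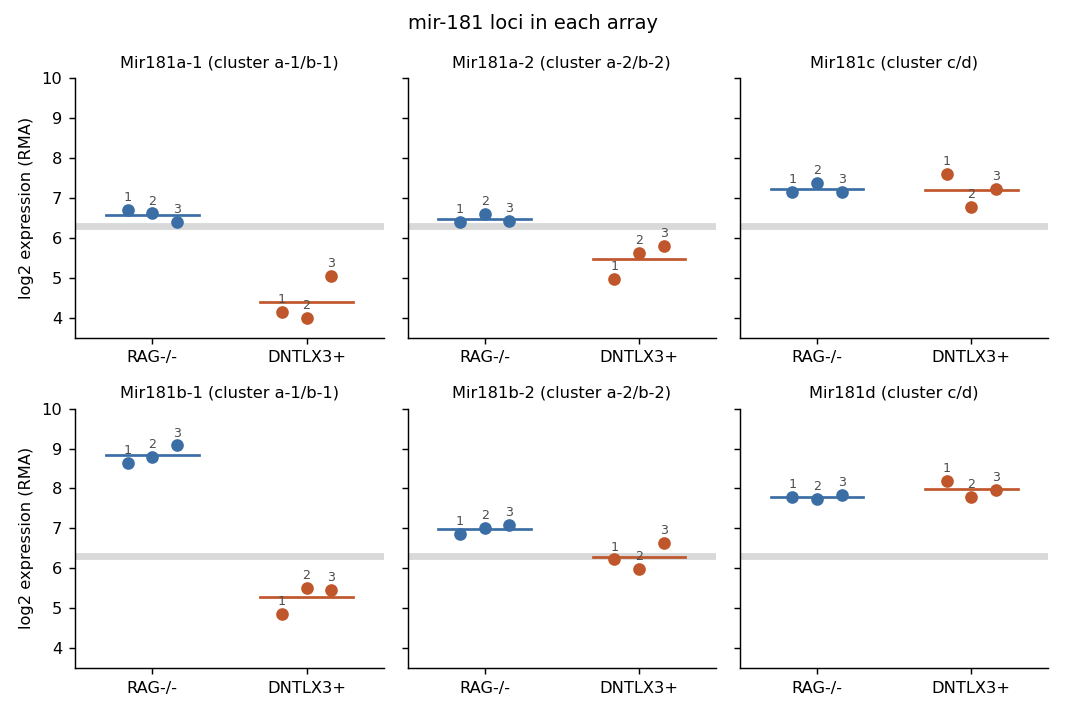
Log2 expression (vertical axis) of the 6 mir-181 loci in each array; points are arrays with their replicate number, lines are group means, and the grey band spans the array medians of 6.22 to 6.35. Mir181a-1 and Mir181b-1 are well apart between the groups, Mir181a-2 and Mir181b-2 are apart by less, and Mir181c and Mir181d overlap.

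In the second cluster, Mir181a-2 was at 6.40, 6.61 and 6.44 in the RAG-/- arrays and at 4.97, 5.63 and 5.80 in the DNTLX3+ arrays. The groups were apart by 0.60 log2 units, less than the 0.83 that the DNTLX3+ arrays spanned among themselves. As for Mir181a-1, the RAG-/- mean was only just above the array medians and the DNTLX3+ mean under them, so the difference may be understated. The log2 difference was -1.02 ± 0.21 (SE), between means of 6.48 ± 0.11 and 5.47 ± 0.44 (SD, n = 3). It was under 1 log2 unit without DNTLX3+ replicate 1 (-0.77), the lowest array, or without RAG-/- replicate 2 (-0.95), and with array weights (-0.83).

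Mir181b-2 was at 6.86, 7.02 and 7.09 in the RAG-/- arrays and at 6.22, 5.98 and 6.64 in the DNTLX3+ arrays. The gap between the groups was 0.22 log2 units, and DNTLX3+ replicate 3 was the closest to the RAG-/- arrays. The log2 difference was -0.71 ± 0.18 (SE), between means of 6.99 ± 0.12 and 6.28 ± 0.33 (SD, n = 3), a 1.64-fold lower mean. The DNTLX3+ mean lay within the array medians of 6.22 to 6.35, so this difference too may be understated.

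The third cluster did not part the groups. Mir181c was at 7.16, 7.38 and 7.16 in the RAG-/- arrays and at 7.61, 6.79 and 7.22 in the DNTLX3+ arrays, which held both its highest and its lowest value. The log2 difference was -0.03 ± 0.20 (SE), and its sign turned when the values were quantile-normalized once more (0.15) or put through cyclic loess (0.07). Mir181d was at 7.80, 7.74 and 7.84 in the RAG-/- arrays and at 8.18, 7.78 and 7.97 in the DNTLX3+ arrays, and the groups overlapped through DNTLX3+ replicate 2. Its log2 difference was 0.18 ± 0.14 (SE).

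Averaged over the loci of a cluster, the log2 difference was -2.87 for a-1/b-1, -0.86 for a-2/b-2 and 0.08 for c/d. The groups did not overlap for 4 of the 6 loci, all lower, where 24.0% of all tested probe sets were lower without overlap and 33.5% higher. With a difference of at least 1 log2 unit as well, there were 3 of 6 loci, Mir181a-1, Mir181b-1 and Mir181a-2, against 5.40% of probe sets (2.56% were higher by the same rule). Since the loci were chosen with this contrast known, these shares stand side by side only. Of the 28192 probe sets, 16 were at least as low in difference as Mir181b-1, itself included, 123 as Mir181a-1 and 1481 as Mir181a-2.

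**Figure D2:**
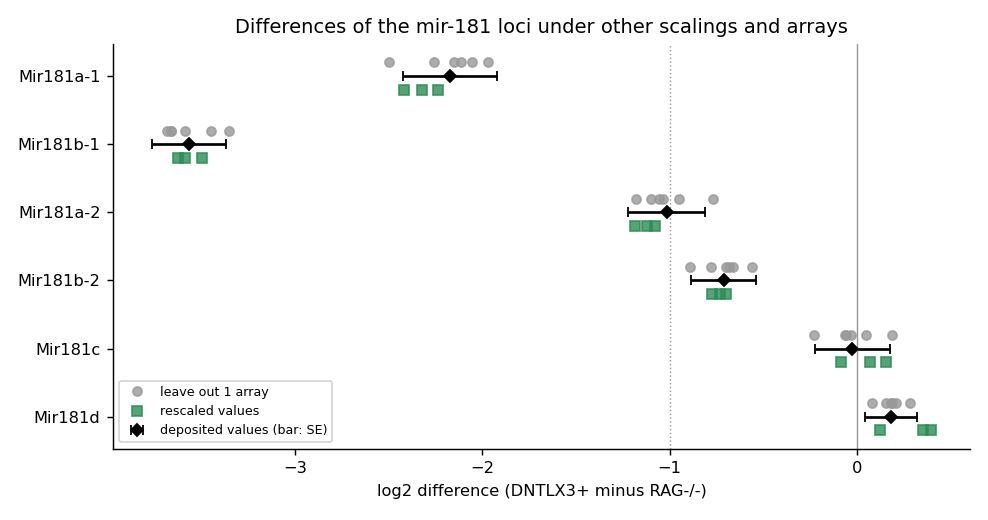
Log2 difference (horizontal axis, DNTLX3+ minus RAG-/-) of each locus from the deposited values (black, bar: SE), from 3 rescalings (green) and with 1 array left out (grey); the dotted line marks -1. The values for Mir181b-1 stay between -3.68 and -3.36, those for Mir181a-2 lie on both sides of -1, and those for Mir181c lie on both sides of 0.

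Within the groups the array-to-array deviations were alike for the c/d loci and less so for the loci of the other clusters. With each group centred on its mean, Pearson's r over the 6 arrays was 0.86 between Mir181c and Mir181d, 0.33 between Mir181a-2 and Mir181b-2 and 0.13 between Mir181a-1 and Mir181b-1. Across clusters the 12 pairs ran from -0.78, between Mir181a-2 and Mir181d, to 0.81, between Mir181b-1 and Mir181a-2. These are descriptions over 6 arrays that share normalization and signal range.

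Among microRNA loci, the difference of Mir181b-1 was the lowest. The 290 other microRNA loci had 292 probe sets with a single symbol, with a median log2 difference of 0.15 and a range of -2.19 to 1.38. None was as low as Mir181b-1, 2 were as low as Mir181a-1, 27 as Mir181a-2 and 45 as Mir181b-2. Lower by at least 1 without overlap were 29 of the 292, against 5.40% of all probe sets. Higher by at least 1 were 15. Without overlap at any difference, 69 were lower and 103 higher, against 24.0% and 33.5% of all probe sets. Counted by level instead, 69 of the 292 had a RAG-/- mean above the array medians, as for all 6 mir-181 loci. Their median was -0.05, and 15 of them were lower by at least 1.

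**Figure D3:**
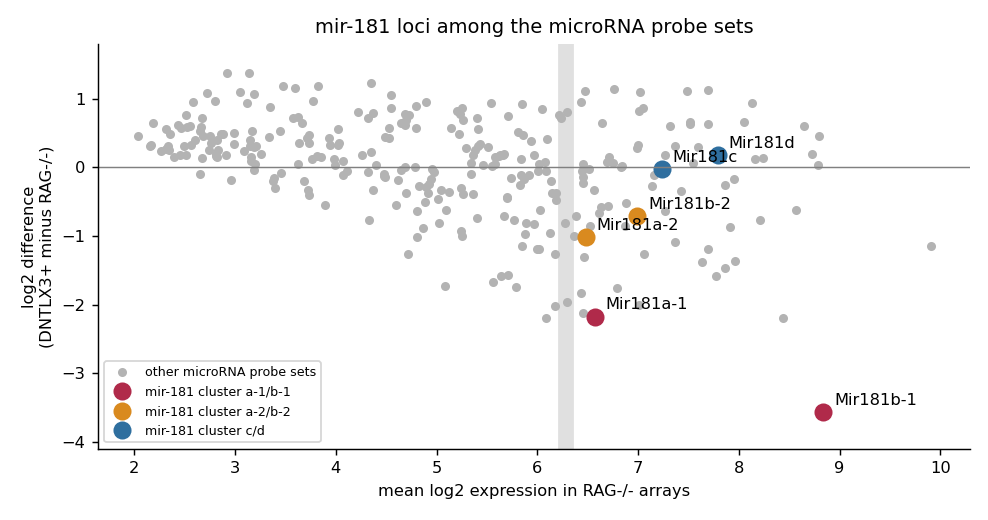
Log2 difference (vertical axis, DNTLX3+ minus RAG-/-) against the mean log2 level in the RAG-/- arrays (horizontal axis) for 292 other microRNA probe sets (grey) and the 6 mir-181 loci (coloured by cluster); the grey band spans the array medians. Mir181b-1, at -3.57, lies below all the others, whose lowest value is -2.19.

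The genes around the clusters were taken from the gene table, 2 on each side. At the a-1/b-1 cluster the measured neighbour was Ptprc, which encodes the leukocyte surface phosphatase CD45. It was at 11.32, 11.19 and 11.24 in the RAG-/- arrays and at 10.14, 10.65 and 10.72 in the DNTLX3+ arrays. It was lower without overlap by 0.74 ± 0.17 log2 units (SE, limma adjusted p = 0.00773), short of the minimum difference of 1. The long noncoding RNA genes Gm34306, Gm4258 and Gm34353 also flank this cluster and were not analysed here.

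The a-2/b-2 hairpins lie within the span of Nr6a1, an orphan nuclear receptor gene, which is transcribed from the opposite strand. Nr6a1 itself was at 6.13, 6.39 and 6.39 in the RAG-/- arrays and at 6.41, 6.44 and 6.25 in the DNTLX3+ arrays, with a log2 difference of 0.06 ± 0.13 (SE, limma adjusted p = 0.712). Its means, 6.30 and 6.37, were close to the array medians of 6.22 to 6.35, so background may hide a difference. Olfml2a, on the other side, had a log2 difference of -0.52 ± 0.16 (SE, limma adjusted p = 0.0279), under the minimum difference. Both of its means lay under the array medians. The antisense transcript Nr6a1os, whose span also holds the a-2/b-2 hairpins, and the pseudogene Gm13474 were not analysed here.

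Beside the c/d cluster, Nanos3, a germ-cell RNA-binding protein gene, had a log2 difference of 0.24 ± 0.12 (SE, limma adjusted p = 0.14) and 4930432K21Rik one of 0.59 ± 0.17 (SE, limma adjusted p = 0.0192). The microRNA loci Mir23a and Mir27a, on the other side, were at -0.05 ± 0.16 and -0.27 ± 0.19 (SE). Both means of Mir23a and the RAG-/- mean of 4930432K21Rik lay under the array medians. None of the 4 was called, where called means a limma adjusted p under 0.05 with means at least 1 log2 unit apart. That rule called 8.00% of all probe sets, 5.41% lower and 2.59% higher, and the adjusted p alone would pass 42.8%, 18.2% lower and 24.6% higher.

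**Figure D4:**
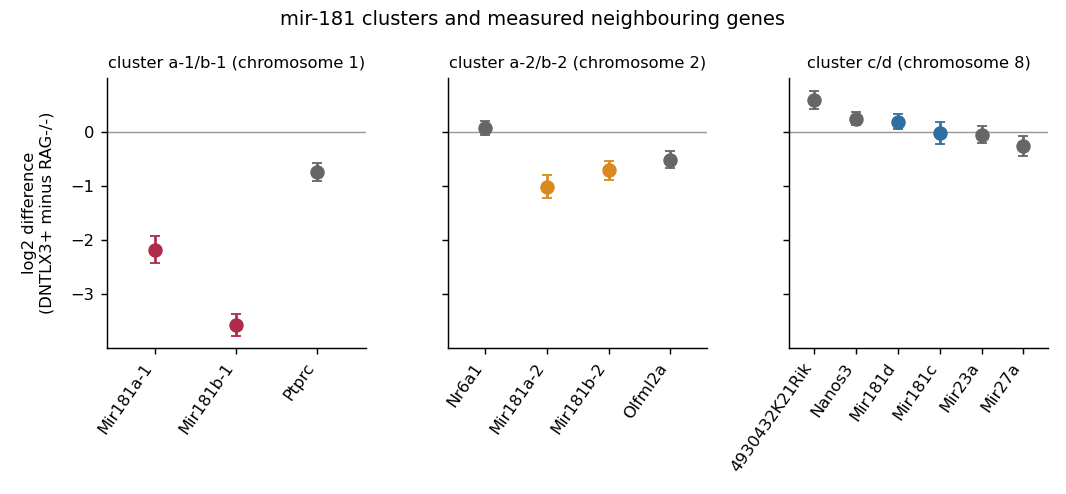
Log2 difference (vertical axis, DNTLX3+ minus RAG-/-, bar: SE) of the mir-181 loci (coloured) and the measured neighbouring genes (grey), in gene order within each cluster and not to scale along the chromosome. Nr6a1, whose span holds Mir181a-2 and Mir181b-2, is at 0.06, with means close to the array medians, while the 2 loci are at -1.02 and -0.71. The antisense transcript Nr6a1os, which also spans them, was not analysed.

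Of the messengers reported as miR-181 targets in T cells, none was called higher in the DNTLX3+ arrays. Of 8 listed genes 7 were analysed here, of which 1 fell by limma's test, 0 rose and 6 were not called (14.3% called, against 8.00% of all probe sets). At an unadjusted limma p under 0.05, 0 were higher and 2 lower, where 31.1% of all probe sets were higher and 21.5% lower. The median log2 difference was -0.16, against 0.13 over all tested probe sets and -0.11 over those at or above the median level. Of the 7, 1 (Cd69) had both means under the array medians.

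Of the phosphatases, Ptpn22, which dampens Lck and ZAP-70 signalling, was at 8.80, 8.62 and 8.70 in the RAG-/- arrays and at 7.49, 7.93 and 7.93 in the DNTLX3+ arrays. The groups did not overlap, with a log2 difference of -0.92 ± 0.15 (SE, limma adjusted p = 0.00201), short of the minimum difference. Dusp5, which inactivates nuclear ERK, was at 8.02, 8.11 and 8.0 against 8.33, 8.28 and 8.13, apart by little and not called (0.20 ± 0.12 SE, limma adjusted p = 0.2). It stood at 0.41 with a further quantile normalization (limma adjusted p = 0.0385) and at 0.38 with cyclic loess (limma adjusted p = 0.0469), still under the minimum difference. Dusp6, its cytoplasmic counterpart, had a log2 difference of -0.16 ± 0.17 (SE, limma adjusted p = 0.459), with overlapping groups, and ran from -0.30 without DNTLX3+ replicate 1 to -0.03 without DNTLX3+ replicate 2. Ptpn11, which encodes SHP2, was at -0.07 ± 0.14 (SE, limma adjusted p = 0.706), a sign that turned with a further quantile normalization (0.13), with cyclic loess (0.10) and without DNTLX3+ replicate 1 (0.01).

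The other T-cell targets were a survival gene, a Notch antagonist and an activation marker. Bcl2, the antiapoptotic founder of its family, was at 9.71, 9.48 and 9.71 in the RAG-/- arrays and at 8.16, 8.93 and 8.73 in the DNTLX3+ arrays. It fell by 1.03 log2 units (SE 0.20, limma adjusted p = 0.00373). The call was lost without RAG-/- replicate 1 or 3 (both -0.99) or without DNTLX3+ replicate 1 (-0.81), and also with a further quantile normalization (-0.87), cyclic loess (-0.88) or array weights (-0.91). Nrarp, a Notch-induced inhibitor of Notch signalling, was at -0.24 ± 0.19 (SE, limma adjusted p = 0.331) with overlapping groups, and ran from -0.43 without DNTLX3+ replicate 2 to -0.03 without DNTLX3+ replicate 3. Cd69, an early activation marker, was at 0.15 ± 0.13 (SE, limma adjusted p = 0.347) with both means under the array medians, and its sign turned with a further quantile normalization (-0.05) and with cyclic loess (-0.11), and it was at 0.09 without DNTLX3+ replicate 1.

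Of 16 genes reported as targets in other tissues, 15 were analysed here, 1 fell, 0 rose and 14 were not called (6.67% called, against 8.00% of all probe sets, with a median log2 difference of -0.05 against 0.13). Of the 15, 7 had both means under the array medians, where a value may be background: Hoxa11, Prox1, Timp3, Cdx2, Gata6, Tcl1 and Plag1. At an unadjusted limma p under 0.05, 3 were higher and 5 lower, where 31.1% of all probe sets were higher and 21.5% lower. The 1 was Prkcd, a protein kinase C isoform, at 9.61, 9.58 and 9.71 in the RAG-/- arrays and 8.49, 8.49 and 8.68 in the DNTLX3+ arrays. It fell by 1.08 log2 units (SE 0.12, limma adjusted p = 0.000415), or by 0.92 with either a further quantile normalization or cyclic loess, where it was not called.

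Of 24 genes that make or use microRNAs, 5 fell, 0 rose and 19 were not called (20.8% called, against 8.00% of all probe sets), with a median log2 difference of -0.28 against 0.13. Only 2 of the 24 had both means under the array medians, and probe sets at or above the median level had a median of -0.11. With that filter 1571 probe sets were called, a larger share of those tested than 8.00%. Of these 75.6% were lower, against 67.7% of 2254 without it. At an unadjusted limma p under 0.05, 4 were higher and 11 lower, against 31.1% and 21.5% of all probe sets. Genes of the same families that were not called include Ago1, Ago2, Ago4, Tnrc6c, Tut7 and Ddx5, and were named after their values were seen. The log2 differences of their brightest probe sets ran from -0.76 to 0.12. The dimmer probe sets of Ago2 and Ddx5 were at 0.48 and -0.43. Tnrc6b, a scaffold that links Argonaute to messenger decay, was at 9.99, 9.85 and 9.98 in the RAG-/- arrays and 8.0, 9.01 and 9.06 in the DNTLX3+ arrays, where replicate 1 stood lowest. It fell by 1.25 (limma adjusted p = 0.00519), or by 0.91 without that array, where the call was lost.

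Ago3, one of the Argonautes that carry microRNAs, was at 8.03, 7.89 and 7.96 against 6.44, 6.78 and 6.96 and fell by 1.23 (limma adjusted p = 0.000611). Tut4, a uridylyltransferase that tags microRNA precursors, was at 9.66, 9.63 and 9.53 against 8.21, 8.44 and 8.68 and fell by 1.17 (limma adjusted p = 0.000614). For both genes every DNTLX3+ array lay below every RAG-/- array. Ddx17, a helicase of the nuclear cutting complex (-1.03), and Tnrc6a, a related scaffold (-1.0), were named after their values were seen. Without DNTLX3+ replicate 1 the calls in this list were 3, Ago3, Tut4 and Gemin4, with Ddx17 at -0.94 and Tnrc6a at -0.75. Gemin4, of the SMN complex and also named after its values were seen, was at 0.99 ± 0.12 with all arrays (SE, limma adjusted p = 0.000611), under the minimum difference, and at 1.04 without that array. It was also called higher with a further quantile normalization (1.19), with cyclic loess (1.17), without RAG-/- replicate 2 (1.01) and without DNTLX3+ replicate 3 (1.03).

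Drosha, which frees the hairpin from the primary transcript, had a log2 difference of 0.03 ± 0.15 (SE, limma adjusted p = 0.867). Its partner Dgcr8 was at -0.29 ± 0.14 (SE, limma adjusted p = 0.124) and Dicer1, which cuts the hairpin loop, at -0.46 ± 0.20 (SE, limma adjusted p = 0.0847). These 3 genes were also named after their values were seen.

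**Figure D5:**
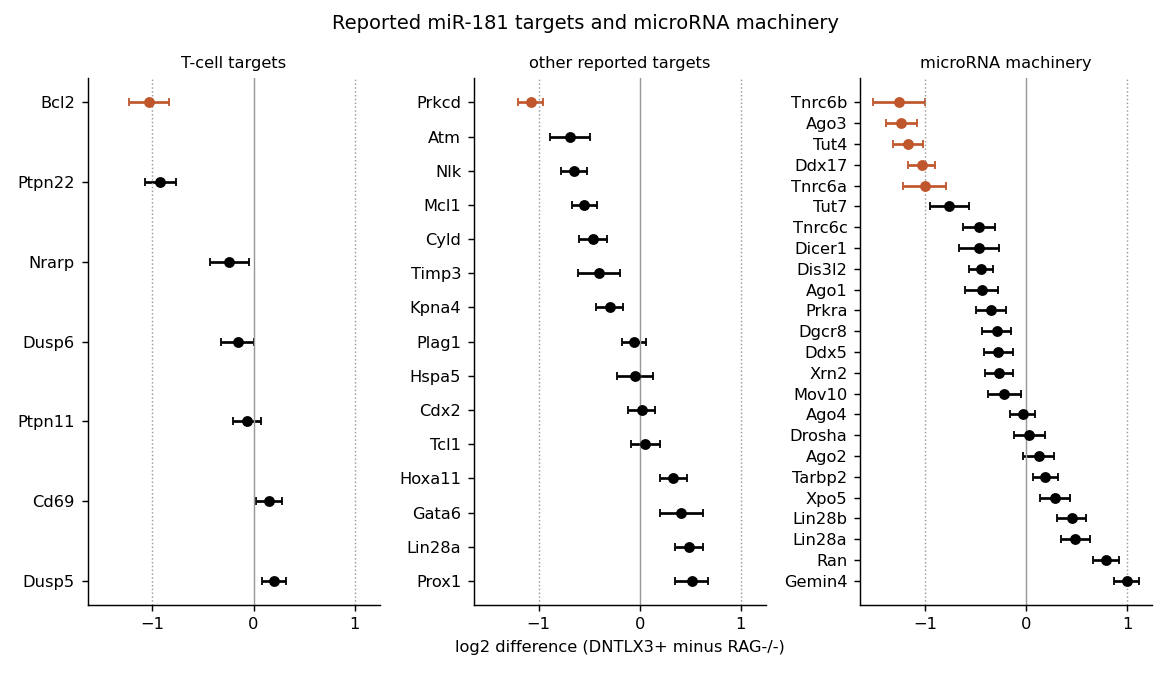
Log2 difference (horizontal axis, DNTLX3+ minus RAG-/-, bar: SE) of the measured reported miR-181 targets and microRNA machinery genes; orange marks called genes and dotted lines mark -1 and 1. The called genes are Bcl2, Prkcd, Tnrc6b, Ago3, Tut4, Ddx17 and Tnrc6a, all lower.

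The genes most like each cluster over the 6 arrays were taken from 19931 genes outside the family, by Pearson's r with the mean of the cluster's loci. For a-1/b-1 they were Slc38a9, Nkiras1, Inpp4b, Ikbke and Lrrfip2 (r from 0.9990 to 0.9997, log2 differences from -1.71 to -1.06), and 1760 genes had r of at least 0.95. The most opposite were Rp9, Bmyc, Rbmxl2, Olfr92 and Irx1 (r from -0.9995 to -0.9979). For a-2/b-2 the most like were Napa, Tespa1, Marchf7, Oaz2 and Zfp729b (r from 0.9954 to 0.9972) and the most opposite Klhl14, Gm4876, Rasl11a, Dpysl5 and Olfr1137. Here 968 genes had r of at least 0.95, and 58 did for c/d. For c/d the most like were Hbb-bh2, Phldb3, Aqp1, Cd209b and Il23r (r from 0.9813 to 0.9933) and the most opposite Trappc9, Rnf24, Dnmt1, Pomt2 and Extl3. Both means of Klhl14, Gm4876, Dpysl5, Olfr1137, Hbb-bh2, Cd209b, Il23r and Rnf24 lay under the array medians, where a value may be background. With 6 arrays that share a difference between 2 groups, such values are a description of these arrays.

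Both groups carried thymocyte genes: all 12 DN thymocyte markers, among them Cd3e, Thy1 and Rag1, had group means above the array medians in both. Of these, Il2ra and Ptcra fell by 1.19 and 1.11 (2 of 12 called), 9 were lower and 1 higher at the limma adjusted p alone, and the list's median log2 difference was -0.48. Markers of other cells moved with the groups, and their part in the mir-181 differences was not tested. All 12 myeloid and dendritic markers fell, 7 of 8 NK markers fell and 6 of 8 thymic epithelial markers fell, where 5.41% of all probe sets were called lower. Their summed linear levels were 8413 to 10200 in the RAG-/- arrays against 1249 to 1327 in the DNTLX3+ arrays for the myeloid list, 2549 to 3036 against 553 to 790 for the NK list and 5715 to 10870 against 802 to 1006 for the epithelial list. The epithelial gene Prss16 was highest in RAG-/- replicate 3 (12.17, against 11.18 and 11.12), where Mir181b-1 was highest and Mir181a-1 lowest of the RAG-/- arrays. Without that array Mir181b-1 differed by -3.45 and Mir181a-1 by -2.26. The RAG-/- arrays left still stood far above the DNTLX3+ arrays in Prss16 (5.59 to 6.49), so these values cannot test the part of epithelial cells. In bulk samples, fewer cells of a type and less RNA per cell cannot be told apart. Of 8 stroma markers, which OP9-DL1 cells could carry, 1 (Dcn) fell and Dlk1 passed the adjusted p alone, at 0.84 (limma adjusted p = 0.00148, no overlap), and of 6 analysed B-lineage markers 0 were called by limma (3 passed the adjusted p alone). Of 5 analysed double-positive markers, Cd8b1 and Ccr9 rose by 1.51 and 1.59 and Arpp21 fell by 1.35, where 2.59% of all probe sets were called higher. Cd4 (-0.34) and Cd8a (0.125) were not called. Both means of Cd4 and the RAG-/- mean of Cd8b1 (5.48) lay under the array medians. Over the 28192 tested probe sets, the interquartile range was 3.09 to 3.18 log2 units in RAG-/- arrays and 2.47 to 2.85 in DNTLX3+ arrays. It was smallest in DNTLX3+ replicate 1. The distributions over these probe sets were thus not equal, and the full deposited table was not examined for this.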

How the data were processed

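Groups and replicate numbers came from the sample labels. The authors deposited log2 values for each probe set; per the submitters' processing notes these came from RMA, run with affy under R 2.9.0. Over the 28192 probe sets tested the arrays' distributions are not equal (the full table was not examined), and no source used here says why. Their genome build is not stated. Of 34760 probe sets, 6568 with low numbers and no gene listed were left out as presumed controls. Of the 28192 tested, 21640 have 1 gene symbol, 1321 several (never used for a name) and 5231 none. All 6 mir-181 loci matched a probe set, 6 had mature sequences and 5 a hairpin in RefSeq.

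Both groups were fitted without covariates by limma 3.58.1 (lmFit and eBayes, R 4.3.3), two-sided, with Benjamini-Hochberg adjustment over the 28192. Each listed gene stood as its brightest single-symbol probe set by mean over all arrays. Named were all mir-181 loci, all T-cell targets, up to 3 called genes per direction in the other 2 lists, 2 neighbours per side, and 5 most like and 5 most opposite genes per cluster. The members and lists were chosen with earlier results of these data known. Alternatives were rescalings, filters on dim probe sets, other variance models, no minimum difference, the replicate number as a block, and leaving out each array. The fit was tested on simulated data. Only 3 arrays per group limit the precision: across probe sets, the SD had a median of 0.11 for RAG-/- and 0.21 for DNTLX3+. Figures were drawn with matplotlib 3.10.9.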

Additional observations from a re-analysis of the deposited data

How the results depend on the processing

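The log2 differences of Mir181a-1, Mir181b-1, Mir181a-2 and Mir181b-2 kept their sign in each alternative run on them, with ranges over single left-out arrays of -2.50 to -1.97, -3.68 to -3.36, -1.18 to -0.77 and -0.89 to -0.56. Mir181c ran from -0.23 to 0.18 and Mir181d from 0.08 to 0.28, and Mir181d stood at 0.40 with a further quantile normalization and 0.35 with cyclic loess. The loci without overlap and with a difference of at least 1 numbered 2 to 3 over the left-out arrays, and 1 with a filter at the median level, since Mir181a-1 and Mir181a-2 were then not tested. With no minimum difference, 12064 probe sets, 2 T-cell targets, 7 other targets and 12 machinery genes passed the limma adjusted p. With single arrays left out, called probe sets numbered 1882 to 2755, T-cell targets 0 to 1, other targets 1 to 1 and machinery genes 3 to 6. Called T-cell targets were 0 with the further quantile normalization, with loess and with weighted arrays (limma, with 3, 3 and 2 at an unadjusted p under 0.05), and called other targets 0 with the same pair of rescalings (limma, 7 and 9 at that p). Machinery calls were 3 with the further quantile normalization (Ago3, Tnrc6b and Gemin4) and 3 with weighted arrays (Ago3, Tnrc6b and Tut4). Ptpn11 turned to 0.13 and 0.10 and Cd69 to -0.05 and -0.11 after those rescalings, and Ptpn11 ranged from -0.18 to 0.01 over the left-out arrays. The median over all probe sets was 0.13, or 0.04 and 0.005 after those rescalings. With the filter at the median level it was -0.11. With the replicate number as a block, called probe sets were 2271 and no list's count changed by over 1.5 times; same-numbered arrays deviated together with correlations of -0.11, 0.06 and -0.00, so the numbers were not taken to pair them. The causes of these changes were not tested unless stated.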

Other observations

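The probe set numbered just before that of Mir181a-1 (10350337) has no gene listed, and it was picked out after its values were seen. It was at 8.26, 7.87 and 8.17 in the RAG-/- arrays and at 5.47, 5.45 and 6.73 in the DNTLX3+ arrays. Its log2 difference was -2.22 ± 0.31 (SE), and DNTLX3+ replicate 3 was the highest of its group there, as for Mir181a-1. The one numbered before it (10350335), also without a listed gene, had a log2 difference of -0.56 ± 0.12 (SE).

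Other microRNA loci were also picked out after their values were seen, and none was tested. Mir15a had a log2 difference of -2.19, from 8.43 to 6.24, while Mir16-1, its cluster partner, was at -0.02 with overlapping groups. Mir15b and Mir16-2, partners in a second cluster, were lower together, at -2.0 and -1.96, both with DNTLX3+ means under the array medians. Of the cluster on the transcript Mir17hg, Mir19a was at -2.01, Mir18 at -1.59, Mir20a at -1.25, Mir17 at -1.19 and Mir19b-1 at -0.81. Of these 5, Mir18 alone had a RAG-/- mean above the array medians, and the DNTLX3+ means of all 5 lay under them.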
